A study of Homo sapiens with 6 samples.

Results

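HEK293 cells that had received siRNA against CF Im59 were compared with HEK293 cells that had received a scrambled siRNA, with RNA of both broken up by alkaline hydrolysis. These were 2 of the 6 libraries of the series, chosen by their labels. Together they held reads at 1124115 of the 2429480 nuclear positions (nucleotides on 1 strand with at least 1 read) found over all 6 libraries. HEK293 is an established cell line from human embryonic kidney, and cells were harvested 3 days after siRNA was added. Another alkaline library came from HEK293 cells without siRNA and is used here as a second control. CF Im25 siRNA (alkaline), and CF Im68 siRNA with a scrambled control of its own (both fragmented with RNase I), made up the rest. The series title concerns cleavage factor Im and the length of 3' UTRs. The comparison therefore asks whether poly(A) site use moved towards the upstream or the downstream site after CF Im59 siRNA.

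Cleavage factor Im is part of the machinery that cuts nascent pre-mRNA and adds the poly(A) tail. A dimer of the small subunit CF Im25 binds UGUA motifs upstream of poly(A) sites, and a larger subunit, either CF Im59 or CF Im68, is joined to it. Many human genes carry more than 1 poly(A) site, and the choice between a proximal (upstream) and a distal (downstream) site sets the 3' end of the transcript, often the length of its 3' UTR.

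The 3' ends were counted by A-seq, in which each read marks the nucleotide where a transcript was cut before its poly(A) tail. The scrambled siRNA library held 9690883 reads and the CF Im59 siRNA library 12642699, with 18183644 reads without siRNA. Mitochondrial reads were 1.91% and 1.55% of the compared pair and were left out. Each group held 1 library, so no difference could be set against a spread between replicates and no test was made. Intervals are 95% intervals that cover the counting error of reads only. Gene annotation of the build of the files (hg19) was not used here, so loci are given by hg19 position and strand. For the same reason the CF Im59 transcript itself and markers of the cell line were not analysed here.

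Poly(A) site use changed at few loci after CF Im59 siRNA, and it changed in both directions. Ends within 25 nt were joined into sites, and neighbouring sites of a strand no more than 5 kb apart into units. A unit can join neighbouring transcripts, so its sites need not belong to the same gene. The 2 sites with the most reads in a unit were compared by the proximal share, the percentage of their reads that lay at the upstream site. A locus was called at a change of 20 percentage points or more, with at least 50 reads in each library and an interval that excluded 0. Of 6889 loci, 176 were called towards the proximal site (2.55% of all tested) and 328 towards the distal site (4.76%). The smallest called rise was 20 points, and the largest rise short of the threshold was 19.97 points.

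Most loci changed little. The change was under 5 points at 3370 loci (48.9%) and under 10 points at 4992 (72.5%). The middle 50% of the changes lay between -7.06 and 3.24 points, and changes ran from -52.6 to 51.4 points. Rises of at least 30 points were seen at 40 loci and falls at 74. Rises of at least 40 points were seen at 11 loci and falls at 16. At 50 points or more there were 3 rises and 1 fall, too few to give a direction, and 0 rises and 1 fall against no siRNA. For no siRNA against scrambled siRNA there were 22 rises and 31 falls at 30 points. These counts were 1 and 3 at 40 points, and 0 and 1 at 50 points. The proximal share was higher than with scrambled siRNA at 41.3% of the loci.

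The choice of control library moved this balance. For no siRNA against the same scrambled library, 1.21% of 7177 loci were called proximal and 2.52% distal, with a median change of -1.15 points, against -1.19 points (interval -1.34 to -0.996) for CF Im59 siRNA. Against no siRNA, 1.62% of 7489 loci were called proximal and 2.08% distal after CF Im59 siRNA, and the median change was -0.06 points (interval -0.17 to 0.00). These medians describe a scrambled siRNA library whose proximal shares lay above those of the other alkaline control at the median locus. Loci called in the same direction against each control numbered 46 proximal (0.669% of the 6879 tested against each) and 57 distal (0.829%).

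**Figure D1:**
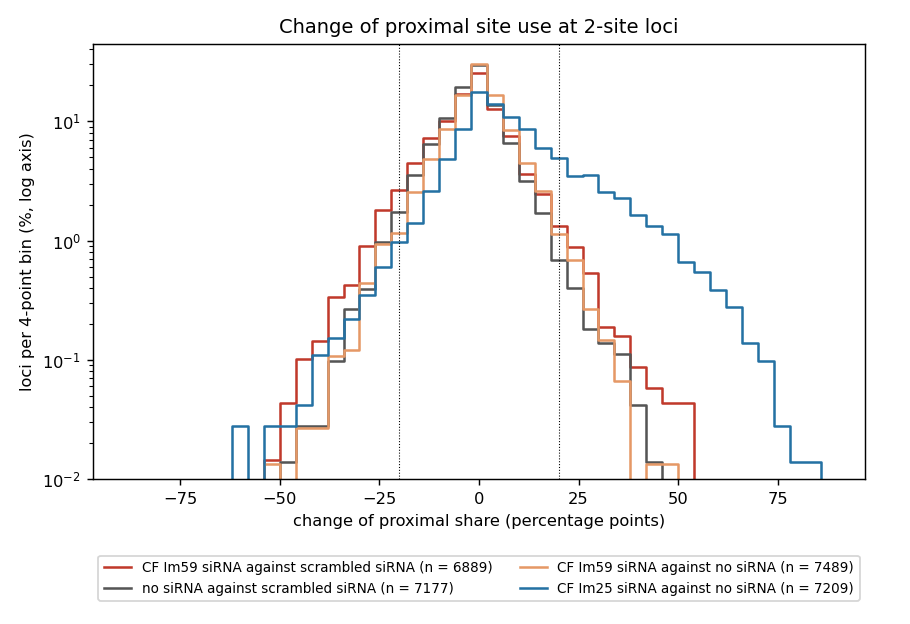
Change of the proximal share at each tested 2-site locus, in percentage points (x axis, 4-point bins), as a percentage of loci per bin (y axis, log scale), for 4 comparisons of alkaline libraries. Dotted lines mark changes of 20 points. The curve of CF Im59 siRNA against scrambled siRNA is wider than that of no siRNA against scrambled siRNA on both sides, and that of CF Im25 siRNA against no siRNA extends to 83.3 points on the proximal side.

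A change of the main site was rarer still. The site that held most of the reads differed between the libraries at 610 loci (8.86%), but at only 151 (2.19%) did the interval of each share lie on its own side of 50%. Of these, 61 switched to the proximal site and 90 to the distal site. For no siRNA against scrambled siRNA the same count was 86 loci (1.20%), with 31 and 55. After CF Im25 siRNA against no siRNA it was 590 loci (8.18%), of which 550 switched to the proximal site.

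Loci with more reads were called less often. Where the shallower of the compared libraries held 50 to 99 reads, 5.21% of 1842 loci were called proximal and 8.69% distal. At 200 to 499 reads the percentages were 1.26% and 3.06% of 1830 loci. At 1000 reads or more, 3 loci in each direction were called of 588 (0.510%, interval 0.105 to 1.48). At the same loci with 1000 reads or more, none was called for no siRNA against scrambled siRNA, which allows up to 0.625%.

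Distal calls were most frequent where the sites lay far apart. They were 1.99% of 905 loci under 100 nt apart (interval 1.18 to 3.13), 1.65% from 100 to 199 nt, 3.18% from 200 to 499 nt, 5.69% from 1000 to 1999 nt and 10.7% of 244 loci at 5000 nt or more (interval 7.08 to 15.2). Proximal calls were 0.884% under 100 nt and 4.51% at 5000 nt or more, with values between 1.65% and 3.28% at the distances between. No siRNA against scrambled siRNA had the same order at its ends, with 1.07% distal calls under 100 nt and 8% at 5000 nt or more. The rise with distance was therefore present between the controls as well.

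**Figure D2:**
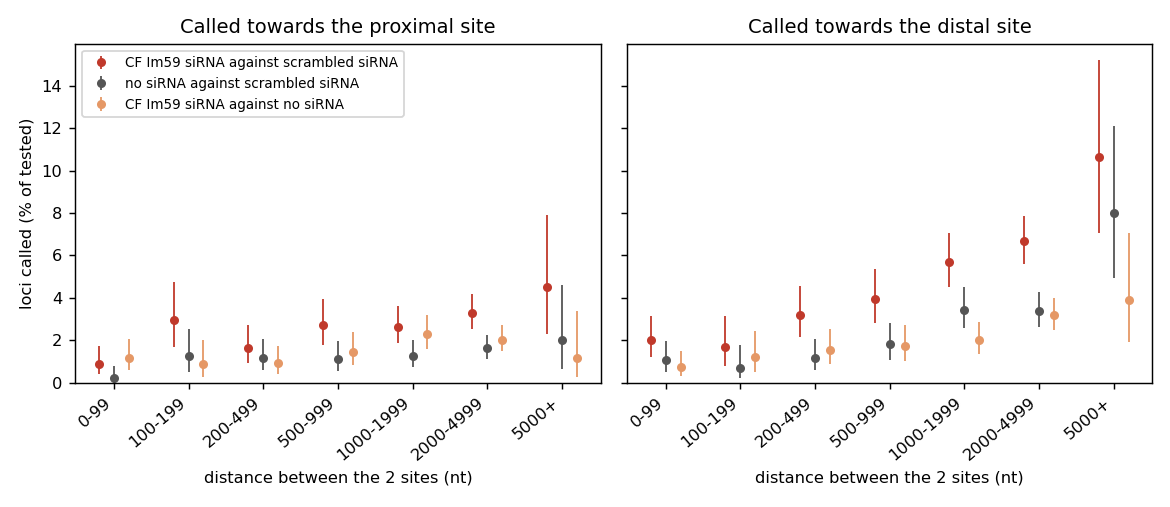
Percentage of tested loci called towards the proximal (left) and the distal site (right) on the y axis, by distance between the 2 sites in nt on the x axis, for 3 comparisons. Points are percentages and bars are exact binomial 95% intervals that treat loci as independent trials. Distal calls after CF Im59 siRNA against scrambled siRNA run from 1.65% to 10.7%, and those of no siRNA against scrambled siRNA between 0.702% and 8%.

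Loci that used both sites moved most. Grouped by the proximal share without siRNA, a library outside the comparison, loci from 20 to 50% were called proximal at 4.10% and distal at 9.29% of 1852. Loci from 50 to 80% were called at 4.81% and 8.13% of 1600. Loci under 20% were called at 0.511% and 0.468%, and loci above 80% at 0.928% and 1.30%. A low share leaves little room for a fall and a high share little room for a rise. Calls on the plus and the minus strand had overlapping intervals, with 2.32% and 2.80% proximal and 4.86% and 4.66% distal. By number of sites in the unit, distal calls were 4.04% in units of 2 sites and 5.40% in units of 6 or more. Where 1 or both sites had over 90% of their reads at 1 nucleotide, proximal and distal calls were nearly as frequent as each other, with 3.24% and 3.51% of 1854 loci. Where neither site did, they were 2.30% and 5.22% of 5035. By chromosome the median change lay between -1.61 points on chromosome 12 and -0.28 points on chromosome 22.

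Among loci that were called against each control and held 100 reads or more per library, the 12 largest rises ranged from 24.7 to 45.7 points. The largest was at 8131140 on the minus strand of chromosome 17, against a site 7885 nt downstream at 8123255. Its share was 33.7% of 593 reads with scrambled siRNA, 58.4% of 793 without siRNA and 79.4% of 384 with CF Im59 siRNA. The rise was 45.7 points (interval 39.9 to 51.0), and the no siRNA library lay between. Scaled to reads in nuclear units (CPM), the distal site went from 45.3 to 6.85 CPM, 6.61-fold lower, while the proximal site went from 23.04 to 26.45 CPM.

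The locus with the most reads among these 12 lay on the minus strand of chromosome 8, with its sites at 24809889 and 24808480. The proximal share was 32.4% of 555 reads with scrambled siRNA, 25.9% of 1426 without siRNA and 72.1% of 6835 with CF Im59 siRNA. With CF Im25 siRNA it was 87.4% of 6969 reads. Both alkaline controls lay far below both of these libraries. With the RNase I scrambled control the share was 58.6% of 6156 reads, and with CF Im68 siRNA 88.2% of 7649, so the controls themselves differed at this locus. The whole unit of 14 sites went from 75.4 CPM to 719 CPM, 9.55-fold, and stood at 1600 CPM with the RNase I scrambled control. The proximal site rose 20.6-fold and the distal site 3.83-fold, so at this locus the share rose while both sites gained reads.

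The chromosome 10 locus (plus strand, 75538833 against 75543130) held 47.3% of 721 reads with scrambled siRNA, 55.1% of 1079 without siRNA and 85.6% of 2112 with CF Im59 siRNA at its proximal site. The rise was 38.3 points (interval 34.3 to 42.2), with 3.99-fold more reads at the proximal site and 0.602 times the reads at the distal site. In the RNase I libraries the share was 4.42% (scrambled) and 3.86% (CF Im68 siRNA). The alkaline and RNase I controls thus differed, and fragmentation and library cannot be told apart here. The chromosome 4 locus (plus strand, 144474548 against 144475523) held 24.2% of 149 reads with scrambled siRNA, 18.8% of 240 without siRNA and 61.3% of 310 with CF Im59 siRNA. This rise of 37.1 points (interval 27.8 to 45.2) was 1 of the 3 among the 12 for which the no siRNA share did not lie between the compared libraries.

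A second locus of chromosome 8, on its plus strand, gave a rise with near-equal controls. The site at 42262241 held 37.9% of 319 reads with scrambled siRNA, 38.8% of 729 without siRNA and 67.9% of 784 with CF Im59 siRNA, against 42263414. The change was 29.9 points (interval 23.5 to 36.0), with the proximal site 3.31-fold higher and the distal site at 0.958 times its control level. The chromosome 7 locus (minus strand, 27236615 against 27232516) held 40% of 130 reads, 41.2% of 277 and 68.6% of 121 in the same order of libraries. Its rise of 28.6 points (interval 16.3 to 39.6) went with a distal site that was 2.73-fold lower, while the proximal site was at 1.20 times its control level. The chromosome 17 locus on the plus strand (14208823 against 14209062) held 10.8% of 102 reads, 10.2% of 147 and 35.6% of 101, a rise of 24.9 points (interval 13.4 to 35.6). At these 3 loci the controls lay within 1.16 points of each other.

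Other rises had a control share near or above 50%. The chromosome 15 locus (minus strand, 75212619 against 75212135) held 50% of 166 reads with scrambled siRNA, 57.8% of 320 without siRNA and 80.3% of 356 with CF Im59 siRNA, a rise of 30.3 points (interval 21.6 to 38.8). The minus strand locus of chromosome 10 (117823871 against 117821835) held 53.3% of 120 reads, 59.4% of 155 and 81.4% of 118, a rise of 28.02 points (interval 16.2 to 38.8), and 95% of 220 with CF Im25 siRNA. At the first the proximal site was 2.59-fold higher, and at the second the distal site was 3.38-fold lower while the proximal site was at 1.13 times its control level.

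Further rises lay on chromosomes 9 and X. The chromosome 9 locus (minus strand, 35088690 against 35087211) held 32.7% of 110 reads with scrambled siRNA, 46.96% of 181 without siRNA and 68.6% of 156 with CF Im59 siRNA, a rise of 35.9 points (interval 23.9 to 46.4). The chromosome X locus among the 12 (minus strand, 54203085 against 54200225) held 26.7% of 105 reads, 30.3% of 218 and 51.4% of 144, a rise of 24.7 points (interval 12.5 to 35.7). With CF Im25 siRNA their shares were 86.5% and 65.8%, above those with CF Im59 siRNA.

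Over all 12 rises, the no siRNA share lay between the compared libraries at 9. The choice favours this, since loci were taken for a large difference between those libraries and a call against no siRNA. The share crossed 50% at 9. The share with CF Im25 siRNA was above that with CF Im59 siRNA at 10 of these 12, and also at 9 of the 12 largest falls. The falls were chosen for a low CF Im59 siRNA share, which favours a place above it. The same count over all loci is not given here. Against no siRNA, the share with CF Im25 siRNA was higher at 72.05% of all 7209 loci.

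The 12 largest falls, chosen in the same way, ranged from 26.0 to 48.4 points. The largest was at 49332494 on the minus strand of chromosome 12, against a site 16742 nt downstream at 49315752. Its share was 91.7% of 603 reads with scrambled siRNA, 83.2% of 962 without siRNA and 43.3% of 728 with CF Im59 siRNA, a change of -48.4 points (interval -52.5 to -44.1). The distal site rose from 5.76 to 35.8 CPM, 6.22-fold, the proximal site was 2.33-fold lower, and the unit of 12 sites as a whole was at 182 and 180.4 CPM. The total was thus 0.990 times its control level. Without annotation it is not known whether the proximal and the distal site belong to the same gene.

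The chromosome 14 locus (plus strand, 24907610 against 24910546) held 78.8% of 189 reads with scrambled siRNA, 68.4% of 313 without siRNA and 35.6% of 174 with CF Im59 siRNA. The change was -43.2 points (interval -51.7 to -33.5). The chromosome 1 locus on the minus strand (78030191 against 78027231) held 78.3% of 166 reads, 61.4% of 319 and 38% of 200 in the same order, a change of -40.3 points (interval -48.8 to -30.6). With CF Im25 siRNA these loci went apart, with shares of 33.8% on chromosome 14 and 89.1% on chromosome 1.

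The chromosome 16 locus (minus strand, 30103636 against 30097117) held 92.7% of 355 reads with scrambled siRNA, 80.9% of 577 without siRNA and 57.6% of 316 with CF Im59 siRNA. The change was -35.1 points (interval -41.0 to -28.9), the distal site was 3.88-fold higher and the proximal site 2.40-fold lower. A chromosome 8 locus that fell (minus strand, 131064998 against 131064353) held 53.7% of 214 reads, 41.8% of 249 and 18.7% of 123, a change of -35.0 points (interval -43.9 to -24.8). Here both sites were lower, the proximal one 6.64-fold and the distal one 1.32-fold, so the fall came with a loss of proximal reads and no gain at the distal site.

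Closely spaced sites also moved. A pair of sites on chromosome 1 (plus strand, 198291518 and 198291547) lay 29 nt apart, and the proximal share was 61.0% of 287 reads with scrambled siRNA, 49.9% of 471 without siRNA and 27.9% of 251 with CF Im59 siRNA. The change was -33.1 points (interval -40.6 to -24.9). In the opposite direction, the sites at 140105862 and 140105899 on the plus strand of chromosome 5 lay 37 nt apart and went from 32% of 150 reads to 62% of 100 (30 points, interval 17.5 to 41.3), with 39.7% of 179 without siRNA. Sites took in ends up to 25 nt on either side, so the windows of each pair overlapped. Ends in the overlap went to the site with the higher peak. With the RNase I scrambled control the shares were 90.6% of 339 reads on chromosome 1 and 0.251% of 399 on chromosome 5.

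Falls also differed in which site moved. On chromosome 5 the sites at 140085632 and 140086240 (plus strand) had a proximal share of 72.1% of 646 reads with scrambled siRNA, 58.97% of 758 without siRNA and 38.3% of 645 with CF Im59 siRNA, a change of -33.8 points (interval -38.8 to -28.6). The proximal site was 2.51-fold lower and the distal site 1.66-fold higher. The chromosome 17 locus among the falls (minus strand, 27590651 against 27582859) held 80.8% of 214 reads, 69.8% of 318 and 43.4% of 267, a change of -37.4 points (interval -44.9 to -29.1), and 70.1% of 298 with CF Im25 siRNA. Its distal site was 2.77-fold higher and its proximal site 1.98-fold lower. A further chromosome 16 locus (minus strand, 72120225 against 72118758) held 70.4% of 284 reads, 60.9% of 465 and 39% of 100, a change of -31.4 points (interval -41.7 to -20.2), and its whole unit went from 32.7 to 8.67 CPM. Distal reads were thus higher at the first and second of these 3 falls, and reads of the whole unit were lower at the last.

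The last of the 12 falls depended on how sites were drawn. The chromosome 3 locus (minus strand, 138255424 against 138252647) held 77.4% of 195 reads with scrambled siRNA, 77.8% of 252 without siRNA and 51.4% of 173 with CF Im59 siRNA. The change was -26.0 points (interval -35.1 to -16.3) with sites of 25 nt on either side, and -13.4 points with 10 nt, below the threshold. Over all 12 falls, the no siRNA share lay between the compared libraries at 11, which the choice favours here too. The share crossed 50% at 10.

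**Figure D3:**
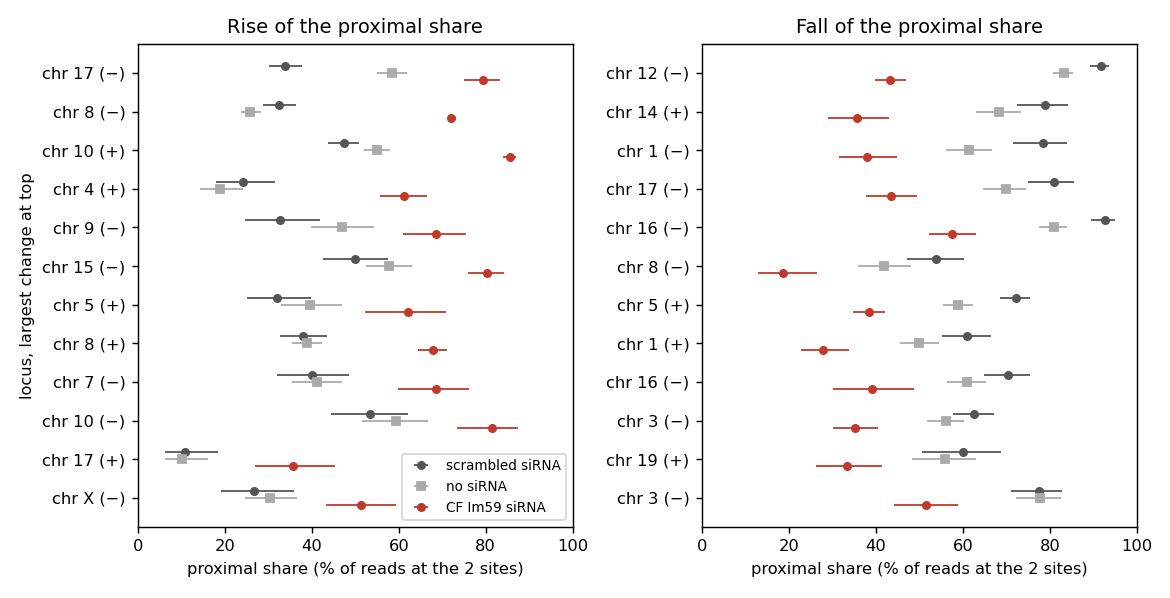
Proximal share (x axis, % of the reads at the 2 sites) of the 12 largest rises (left) and the 12 largest falls (right), 1 locus per line by chromosome and strand, in the scrambled siRNA, no siRNA and CF Im59 siRNA libraries. Bars are Wilson 95% intervals for counting error. The CF Im59 siRNA point lies beyond both controls at every locus, because the loci were chosen so. The no siRNA point lies between the other 2 at 9 of 12 rises and 11 of 12 falls, a place that the choice favours.

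The 6 called loci that held 1000 reads or more per library, singled out after their values were seen, had the least counting error. The chromosome X locus (minus strand, 100655843 against 100652799) held 29.0% of 1212 reads with scrambled siRNA, 23.1% of 3546 without siRNA and 53.4% of 4307 with CF Im59 siRNA. The rise was 24.4 points (interval 21.4 to 27.3). The chromosome 12 locus (plus strand, 54744660 against 54745628) held 36.7% of 2354 reads, 24.5% of 5722 and 10.8% of 3916, a change of -25.9 points (interval -28.1 to -23.7). Of the 6, the chromosome X locus was the 1 that also passed 20 points against no siRNA. At the other 5 the no siRNA share lay between the compared libraries, which a choice by their difference favours.

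Those 5 included the locus with the most reads of the 6. The chromosome 16 locus on the plus strand (29822486 against 29831435) held 64.3% of 13201 reads with scrambled siRNA, 78.7% of 30208 without siRNA and 84.8% of 18064 with CF Im59 siRNA. The rise was 20.5 points (interval 19.5 to 21.5) against scrambled siRNA, most of which was also present between the controls. The chromosome 19 locus (plus strand, 56154836 against 56156989) held 86.3% of 1587 reads, 81.4% of 3373 and 63.1% of 1993, a change of -23.3 points (interval -25.9 to -20.5).

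As a class, the called loci lay farther apart and had fewer reads than the loci tested. The median distance was 1668 nt for proximal and 1862 nt for distal calls, with 1076 nt over all 6889 loci, and the median number of reads in the shallower library was 91.5 and 105, with 180 over all. At the 176 proximal calls the median share was 34.3% with scrambled siRNA, 50.1% without siRNA and 63.7% with CF Im59 siRNA. At the 328 distal calls it was 60.8%, 45.5% and 34.0%. The no siRNA library lay between the compared libraries in both classes. A choice by the difference between those libraries favours this place for a library outside it.

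Reads of the 2 sites showed which of them had moved, a description from the same libraries that gave the calls. A site was called at a 2-fold difference with 50 reads or more in 1 library and an interval that excluded 1. Over all single sites tested, those of 1-site units included, 10.4% were called higher and 13.0% lower after CF Im59 siRNA. Over all 6889 loci the proximal site was called higher at 3.73% and lower at 9.4%. The distal site was called higher at 5.98% and lower at 6.88%, and neither site was called at 5322 loci. At the 176 proximal calls the proximal site was called higher at 46 (26.1%) and the distal site lower at 54 (30.7%), and neither site was called at 79. At the 328 distal calls the proximal site was called lower at 123 (37.5%) and the distal site higher at 83 (25.3%), and neither was called at 134. Both sites were called in opposite directions at 3 proximal and 12 distal calls. A site with few reads could move and stay uncalled. The median log2 ratio at proximal calls was 0.79 for the proximal and -1.05 for the distal site. At distal calls it was -1.06 and 0.65, with -0.25 and -0.06 over all tested loci.

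Total reads of the units of called loci mostly stayed near their control level. They were called higher at 12 and lower at 14 of the 176 proximal calls, and higher at 8 and lower at 30 of the 328 distal calls. These are 6.82% and 7.95% of the proximal calls and 2.44% and 9.15% of the distal calls, where 3.40% of all 6889 loci lay in units called higher and 6.92% in units called lower. The median log2 ratio of the total was -0.17 for each class, with -0.13 over all tested loci.

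The loci called after CF Im59 siRNA were also measured for CF Im25 siRNA against no siRNA, and for CF Im68 siRNA against the RNase I control, comparisons that use neither of the libraries that gave the calls. Of the proximal calls, 155 could be tested with CF Im25 siRNA and 68 of them (43.9%) were called proximal, where 20.4% of all 7209 loci were, with a median change of 15.9 points against 5.35 over the loci tested in both comparisons. Of the distal calls, 298 could be tested, and 73 (24.5%) were called proximal and 23 (7.72%) distal, where 1.97% of all loci were called distal. Their median change was 4.86 points. The share called proximal with CF Im25 siRNA thus lay above that of all loci among the proximal calls and near it among the distal calls. The share called distal lay above that of all loci among the distal calls.

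With CF Im68 siRNA the classes as a whole were ordered the other way. Of the 88 proximal calls that could be tested, 16 (18.2%) were called proximal, where 24.4% of all 5291 loci were, and their median change was 2.67 points. Of the 205 distal calls, 69 (33.7%) were called proximal and 5 (2.44%) distal, where 1.78% of all loci were called distal, with a median change of 10.4 points. Over the loci tested in both comparisons the median was 5.56 points. Among loci called against each control, 3 of 20 proximal calls (15%) and 6 of 34 distal calls (17.6%) were called proximal with CF Im68 siRNA. Their median changes were 6.60 and 5.30 points, so the order of the medians did not hold there. No test was made of these differences, since each group held 1 library.

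Total reads of a unit, a measure of the level of its polyadenylated transcripts, were called by a rule of their own. The counts are therefore not ranked against those of site use. A unit was called where it differed 2-fold or more, had 50 reads or more in 1 library and an interval of the ratio that left out 1. After CF Im59 siRNA 1314 of 15257 units were higher (8.61%) and 1695 lower (11.1%), and 80.5% lay within 2-fold. For no siRNA against scrambled siRNA 4.29% were higher and 4.30% lower. Of the calls after CF Im59 siRNA 43.7% were higher, but 52.5% with TMM scaling, so the balance of rises and falls depended on the scaling. Called in the same direction against each control were 484 higher (3.21% of the 15074 tested against each) and 608 lower (4.03%).

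Called units were often made of few sites. Units of 1 site made up 64.7% of the higher and 56.1% of the lower units, with 41.9% of all tested. Units with over 90% of their reads at 1 nucleotide made up 16.7% and 19.9%, with 11.2% of all tested. The median level with scrambled siRNA was 3.63 CPM for higher and 13.4 CPM for lower units, with 15.8 CPM over all. Part of this difference is given by the rule, since a unit with few control reads can pass only upwards.

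The 10 largest rises among units with at least 100 reads in 1 library, called against each control, were led by a chromosome 4 unit of 2 sites (plus strand, 134111921 to 134114176). It held 2 reads with scrambled siRNA (0.230 CPM), 2 without siRNA (0.121 CPM) and 174 with CF Im59 siRNA (15.1 CPM), 65.5-fold higher (interval 17.9 to 545). The chromosome 8 unit (plus strand, 86387421 to 86387601) held 7.72 CPM with scrambled siRNA (67 reads), 9.37 without siRNA (155 reads) and 215 with CF Im59 siRNA (2482 reads), 27.9-fold higher (interval 21.9 to 36.1). The second of these had more reads in each control than the first and the narrower interval.

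The site at 164286792 on the minus strand of chromosome 6 held 8.76 CPM with scrambled siRNA (76 reads), 8.34 without siRNA (138 reads) and 139.8 with CF Im59 siRNA (1612 reads), 15.97-fold higher (interval 12.7 to 20.4). The site at 12212985 on the plus strand of chromosome 6 had 0 reads in each control and 162 with CF Im59 siRNA (14.1 CPM), at least 32.7-fold higher than with scrambled siRNA by the interval, and all of its reads over the 6 libraries lay at 1 nucleotide. Of the 10 units, 5 had over 90% of their reads at 1 nucleotide, as did 2 of the 10 largest falls that follow.

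The 10 largest falls were led by the site at 88499357 on the plus strand of chromosome 6, with 160 reads with scrambled siRNA (18.4 CPM), 258 without siRNA (15.6 CPM) and 0 with CF Im59 siRNA, at least 57.0-fold lower by the interval. The site at 69156852 on the plus strand of chromosome 8 held 144 CPM with scrambled siRNA (1252 reads), 51.9 without siRNA (858 reads) and 3.12 with CF Im59 siRNA (36 reads), 46.2-fold lower (interval 33.2 to 66.3). The site at 39775695 on the minus strand of chromosome 17 held 74.5 CPM (647 reads), 41.6 CPM (689 reads) and 2.52 CPM (29 reads), 29.6-fold lower (interval 20.4 to 44.6). The no siRNA level lay between the compared libraries at all 10 of these units, and at 4 of the 10 rises. Such a place is favoured by the choice of units.

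The level with CF Im25 siRNA was above both controls at all 10 rises and below both controls at all 10 falls. The ranking of these units did not use it, though sites were defined over all 6 libraries. At the chromosome 4 unit it was 22.5 CPM, at the chromosome 8 unit that rose 118 CPM, and at the chromosome 6 site at 164286792 it was 139.6 CPM. At the falls on chromosomes 6, 8 and 17 it was 0.103, 5.89 and 4.24 CPM. With CF Im68 siRNA the level was above its RNase I control at 3 of the 10 rises and below it at 5 of the 10 falls.

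**Figure D4:**
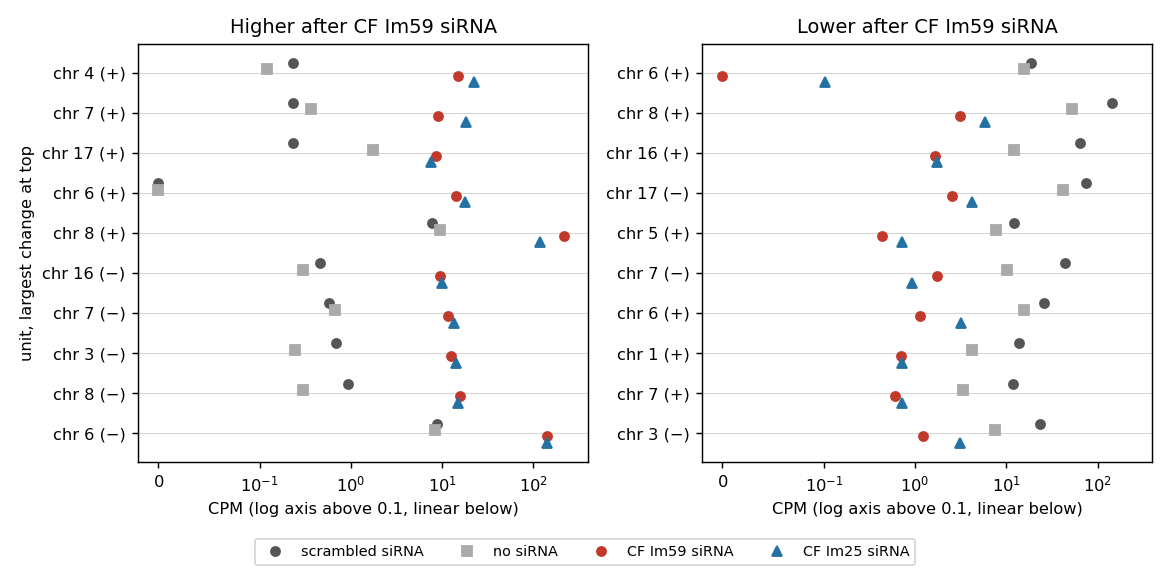
Level (x axis, CPM, log above 0.1 and linear below) of the 10 units with the largest rise (left) and the 10 with the largest fall (right), 1 unit per line by chromosome and strand, in 4 alkaline libraries, each point 1 library. Units were ranked by the scrambled siRNA, no siRNA and CF Im59 siRNA libraries, from sites defined over all 6 libraries. The CF Im25 siRNA point, which was not used for the ranking, lies above both controls at 10 of 10 rises and below both at 10 of 10 falls.

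Among units with at least 5000 reads in 1 of the compared libraries, singled out after their values were seen, 23 of 323 were higher (7.12%) and 6 lower (1.86%), with 8 higher and 1 lower for no siRNA against scrambled siRNA. Over all units the shares were 8.61% and 11.1%. Units could enter this class through the library in which they were high. The CF Im59 siRNA library was the deeper of the pair, so the cutoff favours rises. The balance of higher and lower units in this class is therefore not read as a direction. Of the 23, 11 were also called higher against no siRNA (4.94% of all 17146 units were called higher there and 8.25% lower), and 5 of these 11 lay on chromosome 8. At any depth, chromosome 8 held 531 of the 15257 units tested against scrambled siRNA, and 76 of the 531 were called higher (14.3%). It held 40 of the 484 units called higher against each control. The unit from 33405273 to 33405380 (chromosome 8, minus strand) held 799 reads with scrambled siRNA (92.1 CPM), 3183 without siRNA (192 CPM) and 16907 with CF Im59 siRNA, a 15.9-fold rise. The chromosome 8 unit from 86393041 to 86393722 (plus strand) held 339.8 CPM, 412 CPM and 4063 CPM, an 11.96-fold rise. With CF Im25 siRNA the units stood at 14115 reads (1459 CPM) and 3817 CPM.

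A pair of neighbouring chromosome 6 units (plus strand) was also among the 11. The unit from 31785674 to 31788433 held 151 CPM with scrambled siRNA, 159 without siRNA and 829 with CF Im59 siRNA, a 5.48-fold rise. The unit from 31797908 to 31801309 held 122, 116 and 551 CPM, a 4.51-fold rise. The controls nearly coincided at both. Of the 6 lower units none was called against no siRNA. The no siRNA level lay between the compared libraries at all 6, which a choice by their difference favours. The largest fall of these was on chromosome 20 (plus strand, 43535146 to 43537172), with 734 CPM, 407 CPM and 206 CPM, 3.56-fold lower.

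The called units as a class were measured with CF Im25 siRNA against no siRNA, which shares no library with the calls. Sites had entered by their mean over all 6 libraries, so higher units with few reads could have entered through CF Im25 siRNA reads. Of 1166 higher units that could be tested, 408 (34.99%) were called higher there, where 9.86% of all 17207 units were, and 29 (2.49%) lower. Of 1537 lower units, 504 (32.8%) were called lower, where 10.3% of all units were, and 26 (1.69%) higher. The median log2 ratio was 0.73 and -0.60, with 0.01 over all units. With CF Im68 siRNA against its own control, 12.2% of the higher units were called higher and 9.18% lower. Of the lower units 10.9% were called lower and 9.90% higher. Over all 13531 units 11.2% were called higher and 6.96% lower, so lower calls were more frequent than that in both classes. The median log2 ratio was 0.04 for the higher and 0.01 for the lower units, with 0.07 over all.

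Total reads also differed between chromosomes, a comparison chosen after the values were seen. The median log2 ratio of CF Im59 siRNA to scrambled siRNA was -0.06 over all units. It was -0.49 on chromosome 22, -0.37 on chromosome 16, -0.26 on chromosome 3 and -0.25 on chromosome 20. It was 0.23 on chromosome 13, 0.15 on chromosome 15 and 0.14 on chromosomes 4 and 21. Of 354 units on chromosome 22, 13 were called higher (3.67%) and 78 lower (22.0%), while of 555 units on chromosome 4, 80 were called higher (14.4%) and 26 lower (4.68%). The SD of the medians over 23 chromosomes was 0.191, and 0.0399 for no siRNA against scrambled siRNA.

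Within chromosomes the medians differed between segments. In windows of 20 Mb with at least 30 units, 51 of 144 (35.4%) had a median past 0.2 in either direction, and 1 of 144 (0.694%) for no siRNA against scrambled siRNA. On chromosome 18 the median was 0.12 from 0 to 20 Mb and -0.26, -0.37 and -0.30 in the next 3 windows. On chromosome 1 it was -0.36 in each of the first 2 windows (0 to 40 Mb) and between -0.08 and 0.28 in all later ones. The highest window was the end of chromosome 13 (100 to 120 Mb) with 0.74, where 84.7% of 59 units had a ratio above 1 and 16 were called higher and 0 lower. The lowest was the end of chromosome 14 (100 to 120 Mb) with -0.67, where 11.4% of 70 units had a ratio above 1. This last window was also the lowest between the controls, with -0.28.

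Similar medians were seen against the other control and in another pair of libraries. Against no siRNA, 47 windows passed 0.2 after CF Im59 siRNA. For CF Im25 siRNA against no siRNA, which shares no library with CF Im59 siRNA against scrambled siRNA, 54 windows passed 0.2, and the medians had r = 0.859 and Spearman's rho = 0.839 over the 144 windows. On chromosome 18 its medians were 0.18, -0.30, -0.30 and -0.22 in the same order, and at the end of chromosome 13 it was 0.63. The windows share the annotation-free units and the fragmentation method, and neighbouring windows are not independent, so these values are descriptions. For CF Im68 siRNA against its RNase I control 14 windows passed 0.2 and r was 0.0648. A difference between siRNAs and a difference between the cultures that received them cannot be told apart with 1 library per group.

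**Figure D5:**
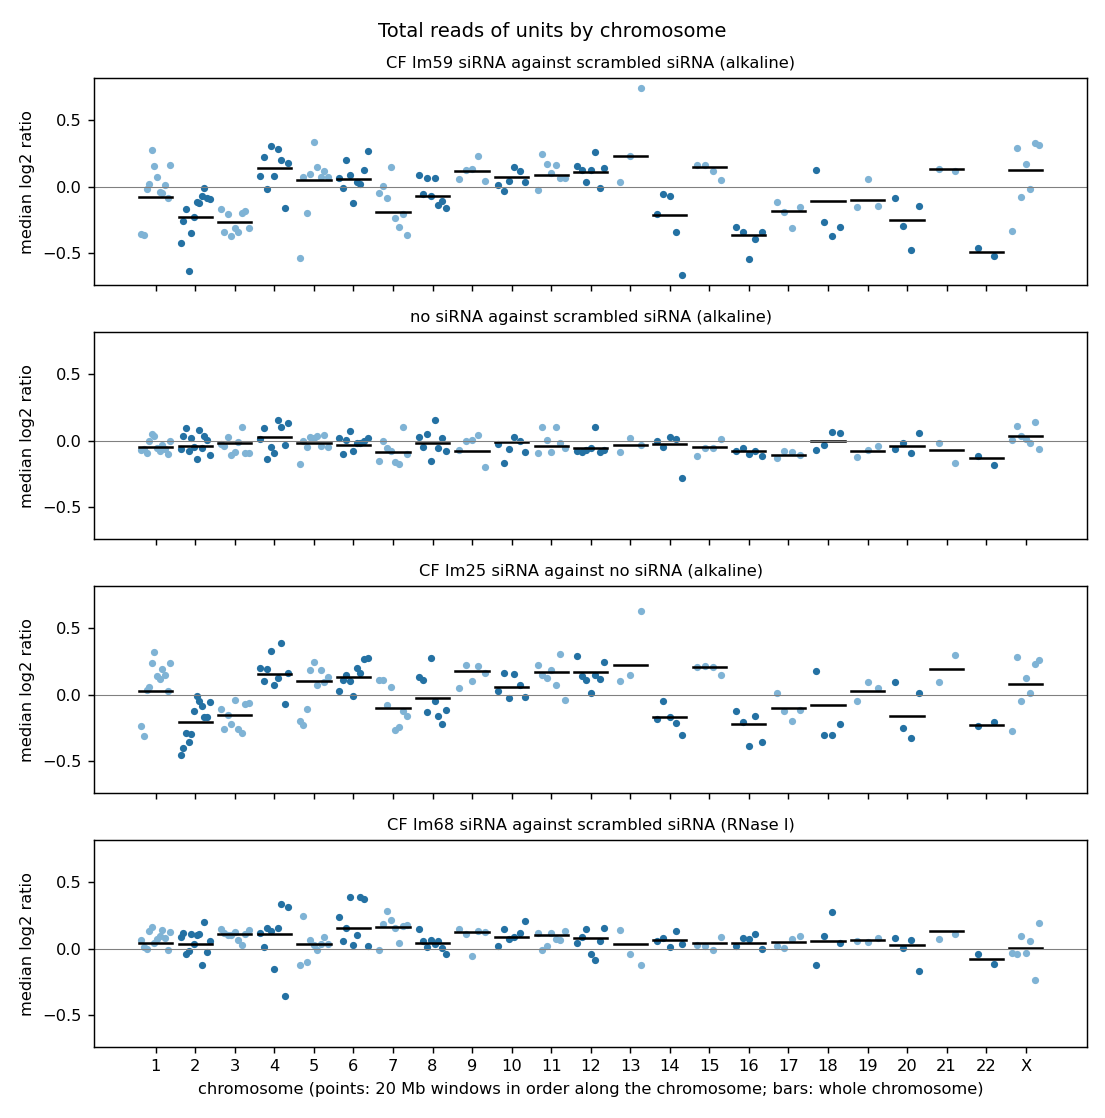
Median log2 ratio of total reads (y axis) by chromosome (x axis) in 4 comparisons, with points for windows of 20 Mb in their order along each chromosome and bars for whole chromosomes. In CF Im59 siRNA against scrambled siRNA the windows run from -0.67 to 0.74 and in no siRNA against scrambled siRNA from -0.28 to 0.16. CF Im25 siRNA against no siRNA, from other libraries, has its highest window at the end of chromosome 13 too.

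When each ratio was centred on the median of its window, an alternative added after the data were seen, 1367 units were called higher and 1391 lower. Of these, 1124 higher and 1268 lower units were among the original calls. Centring on a median brings the numbers of higher and lower units together by its construction. Before it, 1314 were higher and 1695 lower.

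Where within a site the transcripts were cut hardly changed. Among 5337 sites with at least 200 reads in each library, the mean end position moved by less than 1 nt at 92.6%, and by at least 3 nt at 18. Of these, 13 moved downstream (0.244%) and 5 upstream (0.0937%), where no siRNA against scrambled siRNA gave 5 downstream (0.0863%) and 0 upstream of 5791. Against no siRNA the order turned, with 2 downstream (0.0295%) and 19 upstream (0.281%) of 6771 sites after CF Im59 siRNA. The median share of reads at the most used nucleotide of a site was 67.5% with CF Im59 siRNA and 66.8% with scrambled siRNA.

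The largest such shift was at 30825023 on the plus strand of chromosome 22. Mean ends lay 15.5 nt downstream of the site's position (the nucleotide most used over all libraries) with scrambled siRNA (316 reads), 15.9 nt without siRNA (498 reads) and 8.73 nt with CF Im59 siRNA (454 reads), a shift of -6.77 nt (SE 0.583). With CF Im25 siRNA the mean lay at 11.6 nt. The largest shift downstream was at 10851716 on the minus strand of chromosome 12, from 8.57 nt (386 reads) to 13.6 nt (515 reads), a shift of 5.04 nt (SE 0.865), with 11.6 nt without siRNA (811 reads). The controls lay within 0.379 nt of each other at the first site and apart at the second, where the no siRNA library was in between.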

How the data were processed

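The 6 A-seq libraries of HEK293 cells were read as deposited. Per the file headers and values, the authors' files give counts: whole-number reads per nucleotide and strand, unscaled, 1 library per file. The builds are hg19 and GRCh37 by the submitters' processing notes. For the aligner, the read filters and the removal of duplicate or internally primed reads nothing is given in the sources used here, so intervals may be too narrow. Groups came from the labels.

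Sites were called once over all 6 libraries at equal weight (25 nt on either side of the highest remaining position, mean of at least 1 CPM), giving 49695 nuclear sites, 28114 units and 8999 pairs in which each site held at least 5% of the unit. Sites held 91.3% of nuclear reads with scrambled siRNA and 92.6% with CF Im59 siRNA. A unit can join neighbouring transcripts and is not a gene. Changes were rounded to 9 decimals before the threshold. Shares have Wilson intervals, their differences Newcombe intervals, and ratios and percentages of loci exact intervals. Log2 ratios used 0.5 added reads. Python 3.11.15 with numpy 2.4.6, pandas 2.3.3 and scipy 1.17.1 was used, and edgeR 4.0.16 for TMM factors only. The steps were tested on simulated data.

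Named loci were, in each direction, the 12 largest changes with at least 100 reads in each library, called also against no siRNA. Named units were the 10 largest with at least 100 reads in 1 library under the same condition, and named shifted sites the 3 largest in each direction, of which the first is given. The members and lists were chosen with earlier results of these data known. Comparisons by chromosome, windows of 20 Mb and deep loci were added after values were seen. Alternatives changed the control, site window, site minimum, gap, read minimum, threshold and scaling. Gene lists, motifs, the targeted transcripts and pairs within 1 annotated gene need annotation or sequence of hg19 and were not analysed here.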

Additional observations from a re-analysis of the deposited data

How the results depend on the processing

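No paired analysis was possible because each group held 1 library, and for the same reason no replicate could be left out. Counts of calls moved with every threshold. Calls towards the proximal and distal site were 293 and 558 with a minimum of 20 reads, 32 and 79 with 200 reads, 571 and 1104 at 10 points, and 40 and 74 at 30 points. Distal calls were 156 with the no siRNA library as control and 178 with the controls added up. The median change was -0.062 with no siRNA as control, -0.48 with the controls added up and -0.83 with a minimum of 200 reads. Units higher and lower were 2444 and 3613 with no minimum of reads, 431 and 540 with 200 reads, 2830 and 3539 at 1.5-fold, and 227 and 334 at 4-fold. Units higher were 847 with no siRNA as control and 780 with the controls added up. Shifted sites were 56 with a minimum of 100 reads and 72 at 2 nt. The other alternatives (site window, site minimum, gap, sites and units over 90% at 1 nucleotide, TMM or median of ratios scaling, centring on windows) left these counts within 1.5 times. Of the alternatives for named loci 170 kept the call and 1 did not, the chromosome 3 fall given above, and calls against no siRNA were kept because the rule of choice asked for them. A further 21 of the 192 gave no value, as that pair of sites was not among the pairs compared there, 11 of them with the gap of 2 kb and 5 without sites over 90% at 1 nucleotide. The site minimum, the gap and the removal of sites over 90% at 1 nucleotide left the reads of a kept pair unchanged, so its call could not alter. The share of the controls added up lies between the control shares, so those calls were also given by the choice. Only the site window of 10 nt, with 23 values, could lose a call. Restriction to pairs within 1 annotated gene was not run. The cause of these differences was not tested. Depth limits the calls: loci with 50 to 99 reads gave 96 of the 176 proximal and 160 of the 328 distal calls.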

Other observations

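Some sites had reads in only 1 of the compared libraries. Of sites with at least 50 reads, 7 were found with CF Im59 siRNA and had 0 reads with scrambled siRNA, and 5 of these had over 90% of their reads at 1 nucleotide. Over all 49695 nuclear sites, 721 had 0 reads with scrambled siRNA and 718 had 0 with CF Im59 siRNA. A minimum of 50 reads is met more easily in the deeper CF Im59 siRNA library. The site at 137751500 on the minus strand of chromosome X held 57 reads with CF Im59 siRNA, 0 in each control and 192 with CF Im25 siRNA. The site at 152493733 on the same strand of chromosome X held 50 reads with CF Im59 siRNA, 0 in each control and 57 with CF Im25 siRNA. Sites needed a mean of at least 1 CPM over all 6 libraries. Both chromosome X sites reached it only with their CF Im25 siRNA reads, which are therefore no separate observation. The site at 5863900 on the minus strand of chromosome 12 held 80 reads, 0 with scrambled siRNA, 1 without siRNA and 441 with CF Im25 siRNA. In the RNase I libraries all 3 of these sites had 0 reads. The reverse was seen at 3 sites. The site at 34590695 on the minus strand of chromosome 13 held 61 reads with scrambled siRNA, 98 without siRNA and 0 with CF Im59 or CF Im25 siRNA. The site at 80089992 on the plus strand of chromosome 6 held 73 reads with scrambled siRNA, 187 without siRNA, 0 with CF Im59 siRNA and 1 with CF Im25 siRNA. For no siRNA against scrambled siRNA, 1 site had at least 50 reads without siRNA and 0 with scrambled siRNA, and 0 sites the reverse. The minimum of 1 mean CPM asks for more reads of the deeper no siRNA library. These last counts are therefore not on an equal footing with the 7 and 3 above.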
